A study of Mus musculus with 12 samples.

Results

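The transcript levels of NIH3T3 cells in G1 were described before any drug was given. NIH3T3 is an established line of mouse embryonic fibroblasts, and the description rests on the 3 arrays labelled as untreated controls, out of 12 arrays in the series. They are all the arrays with that label. Each array held total RNA of the G1 fraction, collected by cell sorting from cells grown in medium with 10% foetal calf serum. The other 9 arrays came from the same line kept in 1 mM DFMO (difluoromethylornithine, an inhibitor of the polyamine enzyme ornithine decarboxylase) for 12 h (2 arrays), 24 h (3), 48 h (2) and 96 h (2), and the series text gives the untreated cells as 0 h. Time in culture and exposure to the drug therefore cannot be told apart. The DFMO arrays are used here only for context. The labels call the 3 arrays biological replicates without saying whether cultures or sorts were separate, so every spread and p-value below covers only the differences between these samples, and their number limits the precision. All groups share 1 immortal line, which is no primary fibroblast, and the purity of the sort was not given in the sources used here.

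Fibroblasts are the connective tissue cells that build the extracellular matrix: they secrete fibrillar collagens and fibronectin, hold on to them through integrins, and respond to growth factors such as PDGF and FGF through receptor kinases. In G1, mitogen signals act through D-type cyclins and the kinases CDK4 and CDK6 to release E2F factors, which switch on the genes of DNA replication, and inhibitors such as the products of Cdkn1b and Cdkn2a hold this step back. Lines such as NIH3T3 are known to have lost the Cdkn2a locus during their establishment.

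Each gene was placed in 1 of 3 bands by its mean log2 level over the untreated arrays. The array floor was read from 1194 olfactory and vomeronasal receptor genes, chemosensory genes that fibroblasts should lack, whose median was 3.79. A gene was called at the floor at or below the 95th percentile of these receptors, a limit of 4.35 log2 units. It was called high in the top 10% of the 19938 genes, above 8.68, and moderate in between. The limit left 60 of the receptors above it, the highest at 5.57. A moderate level up to 5.57 is therefore not clear of the receptor range and does not by itself show expression. By this rule 10525 genes (52.8%) were at the floor, 7419 (37.2%) were moderate and 1994 (10.0%) were high. The levels of all genes ran from 2.89 to 12.71 with a median of 4.14. A level depends on the probes of its gene, so bands describe each gene against the array and do not rank amounts of RNA between genes. A gene just inside a band can lie close to one just outside it, as with Cdk2 at 8.71 (high) and Cspg4 at 8.67 (moderate), or Acta1 at 4.35 (moderate) and Lyz2 at 4.34 (floor).

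**Figure D1:**
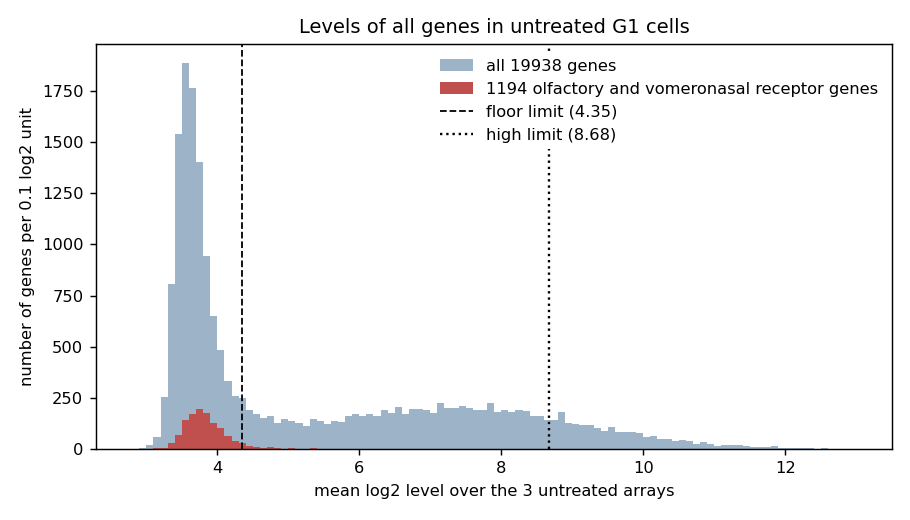
Histogram of the mean log2 level of each gene over the 3 untreated arrays (x axis, log2 units; y axis, number of genes per bin of 0.1). Blue bars are all 19938 genes and red bars the 1194 chemosensory receptor genes, which form the narrow peak at the left; the dashed and dotted lines are the floor limit of 4.35 and the high limit of 8.68.

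The 3 arrays were alike, and replicate 3 stood somewhat apart. Over all genes, replicates 1 and 2 correlated with r = 0.998, replicates 1 and 3 with r = 0.996 and replicates 2 and 3 with r = 0.995. Among the 9413 genes above the floor, 1 differed by more than 1 log2 unit between replicates 1 and 2, 26 between replicates 1 and 3, and 44 between replicates 2 and 3. In all, 55 genes above the floor (0.584%) had a range over 1 log2 unit, and in 47 of them replicate 3 lay farthest from the other two. Replicate 3 was the highest array for 53.2% of the genes above the floor. With replicate 3 left out, 97.7% of the high genes and 99.5% of the floor genes stayed in their band.

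The genes that spread most were few and of mixed kind. Usp17ld, a deubiquitinase gene of a multicopy family, had levels of 4.92, 6.84 and 3.56 on replicates 1, 2 and 3, lowest on replicate 3. AY036118, a transcript known to lie next to ribosomal repeats, had 8.73, 9.70 and 7.21. Sulf1, a sulfatase that edits heparan sulfate, had 5.63, 6.18 and 7.30 and was highest on replicate 3. The small nucleolar RNA genes Snord35a and Snord49b had 4.38, 4.32 and 6.11 and 7.20, 7.15 and 8.50. Of 45 genes named as small nucleolar or small nuclear RNAs above the floor, 34 were highest on replicate 3. The remaining genes of the 10 widest were Hbb-bh1, Tceal9, Bloc1s3, Car6 and Samd9l, and all 5 were highest on replicate 3.

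**Figure D2:**
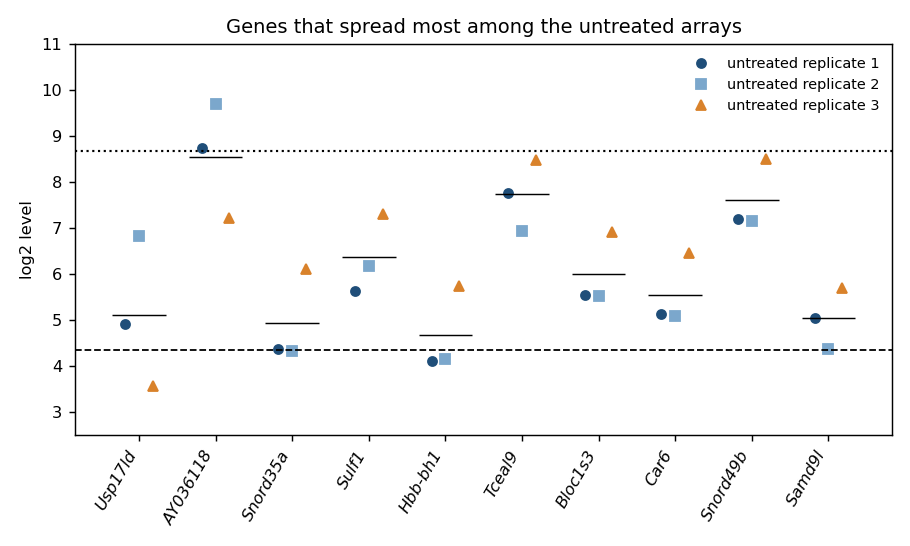
Log2 level (y axis) of the 10 genes with the largest range over the untreated arrays, widest at the left, with 1 symbol per array and a short line at the mean. Replicate 3 (triangles) is the highest array for 8 of the 10 genes and the lowest for Usp17ld and AY036118; the dashed and dotted lines are the floor and high limits.

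The genes with the highest values encode cytoskeletal, ribosomal, chaperone and mitochondrial products, among others. Actb, cytoplasmic actin, had 12.47, 12.54 and 12.62 on replicates 1, 2 and 3, and Vim, the intermediate filament protein vimentin, had 12.29, 12.28 and 12.34. Eef1a1, which brings aminoacyl-tRNA to the ribosome, stood at 12.60 ± 0.10 (mean ± SD, n = 3, as for all such values below), and Rplp0, a protein of the ribosomal stalk, at 12.23 ± 0.06. The chaperone gene Hspa8 had 12.53 ± 0.02, the prolyl isomerase gene Ppia 12.31 ± 0.06 and the ferritin heavy chain Fth1 12.16 ± 0.04. COX2, a mitochondrially encoded subunit of cytochrome oxidase, had 12.49 ± 0.11, and the nuclear RNA Rn7sk had 12.24 ± 0.29, its widest deviation being on replicate 3 (12.39, 12.42 and 11.91). The highest value of all carried the symbol Baiap2l1 (12.71), but its 3 transcript clusters had means of 12.71, 10.48 and 4.84. The clusters at 12.71 and 10.48 share a non-coding RNA as first listed transcript, and only that at 4.84 lists a messenger RNA. The value of 12.71 is therefore not taken as the level of Baiap2l1. Ppia, Eef1a1, Fth1 and the ribosomal protein genes have many processed copies in the genome, so their probes may read more than 1 locus. Probe positions could not be checked for any gene. The same may therefore hold for others, among them COX2 here and Pgk1, Odc1 and Eif5a below.

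The label of fibroblast was set against marker genes. Of 23 fibroblast and mesenchymal markers measured, 11 were high, 5 moderate and 7 at the floor, with a median of 8.50 against 4.14 over all genes. The high ones included Col1a2, the second chain of type I collagen, with 11.77, 11.84 and 11.79, and Col1a1, the first chain, with 11.58, 11.80 and 11.38. Fn1, fibronectin, had 11.69, 11.72 and 11.64. All 3 genes kept the same band on every array. S100a4, a calcium-binding protein long used as a fibroblast marker, had 10.96 ± 0.07. Ddr2, a kinase receptor for fibrillar collagen, had 10.09 ± 0.10, and Cd44, the hyaluronan receptor, 8.72 ± 0.12. Thy1, a surface glycoprotein of fibroblasts, was moderate with 8.26, 8.25 and 8.44, just under the high limit. The 7 markers at the floor were Cdh11, Lum, Dcn, Tcf21, Eng, Fap and Nt5e, which covers the small leucine-rich proteoglycans lumican and decorin as well as the activation marker Fap (3.44 ± 0.05). The label therefore held for the collagen, fibronectin and vimentin genes, while these 7 markers of fibroblasts in tissue were not above the array floor.

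Markers of other cell types were nearly all at the floor, with a handful of exceptions. Among 19 leukocyte markers 0 were high, 1 moderate and 18 at the floor. Ptprc, the pan-leukocyte phosphatase CD45, had 3.33, 3.42 and 3.32, and the 1 moderate member was Cd14 at 4.39, at the edge of the floor. The list had a median of 3.62. Of 12 endothelial markers 0 were high, 1 moderate and 11 at the floor. Pecam1, the junction protein CD31, had 3.55, 3.47 and 3.53, and the 1 member above the floor was Flt1, a receptor for VEGF, with 7.69, 7.65 and 7.58. All 8 hepatocyte markers and all 8 osteoblast markers were at the floor. In the 15 neuron and glia markers the single exception was Tubb3, a tubulin that dividing cells can also make (5.35 ± 0.30), and among 12 pluripotency and germ cell markers it was Sycp3 at 4.44. Mitf at 5.97 ± 0.26 was the exception among 9 melanocyte and keratinocyte markers. The 4 sex chromosome transcripts measured, the X-inactivation RNA Xist and the Y-linked Uty, Kdm5d and Eif2s3y, were all at the floor, at 3.42 to 3.90.

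Single genes of other lineages stood above the floor on all 3 arrays, although Gata4 lay within the range of the chemosensory receptors (up to 5.57). Krt14, a keratin of basal epithelium, was high with 8.56, 8.76 and 9.17, highest on replicate 3, while the other 13 epithelial markers were at the floor, among them its usual partner Krt5 (3.34 ± 0.09), Krt8 (3.41 ± 0.13), Cdh1 (4.04 ± 0.04) and Epcam (3.45, 3.44 and 3.46). It lay under the high limit on replicate 1 alone. Dlk1, a surface protein of preadipocytes that restrains adipogenesis, was high with 8.79, 8.84 and 8.81, and among the 13 adipocyte markers 1 was high, 2 moderate and 10 at the floor. Pparg, the receptor that drives fat cell formation, had 3.68, 3.82 and 3.64, and its targets Fabp4 and Adipoq were at 3.56 and 3.82. Sox9, the master factor of cartilage, was high with 9.30, 9.28 and 8.88, lowest on replicate 3, and its targets Col2a1 (4.09 ± 0.02) and Acan (3.40 ± 0.04) were at the floor. Of the 10 cardiomyocyte markers the factors Nkx2-5 (6.18 ± 0.08) and Gata4 (5.31 ± 0.18), the peptide Nppb (5.82 ± 0.37) and the troponin Tnnt2 (6.73 ± 0.04) were moderate, and the contractile genes Myh6 (3.33 ± 0.07), Myh7 (3.66 ± 0.07) and Tnni3 (3.49 ± 0.04) were at the floor. In bulk RNA a low level in every cell cannot be told apart from a high level in a few cells, nor fewer cells of a type from less RNA per cell.

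**Figure D3:**
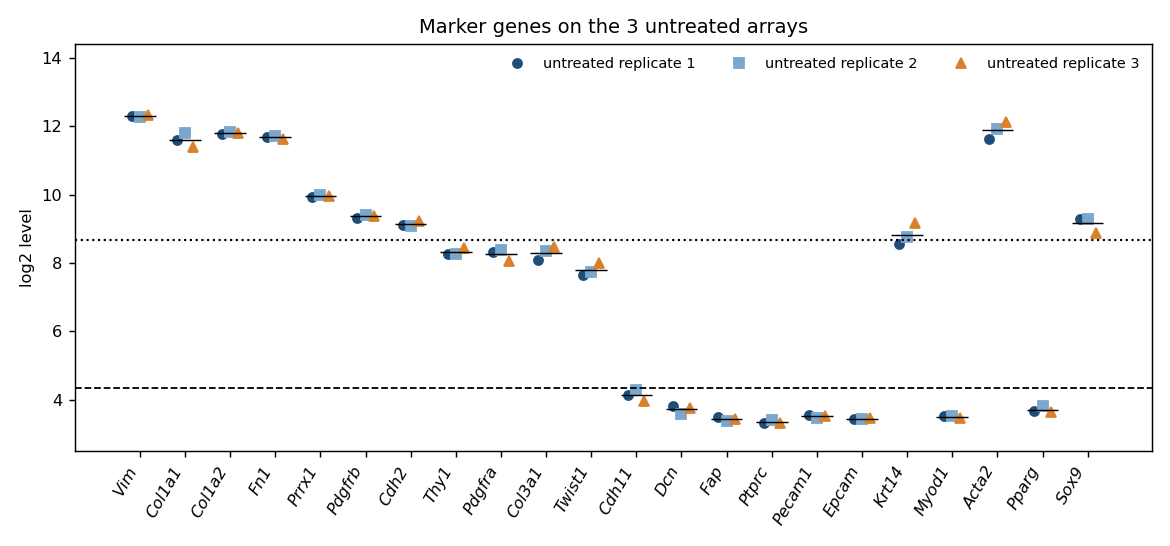
Log2 level (y axis) of 22 marker genes on the 3 untreated arrays, 1 symbol per array and a short line at the mean, with the floor limit dashed and the high limit dotted. The collagen and fibronectin genes sit near the top on all arrays, Dcn, Fap and the leukocyte, endothelial and epithelial markers Ptprc, Pecam1 and Epcam sit under the floor limit, and Krt14 and Sox9 lie near the high limit, Krt14 highest and Sox9 lowest on replicate 3.

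Contractile genes known from myofibroblasts were above the floor and those of differentiated muscle mostly were not. Acta2, smooth muscle actin, was high with 11.62, 11.91 and 12.12, the lowest value on replicate 1. Cald1, caldesmon, which regulates actomyosin, had 9.63, 9.77 and 9.43, and Tagln, the actin-binding protein transgelin, was moderate at 8.14, 8.83 and 8.77. Of 12 members of this list 2 were high, 6 moderate and 4 at the floor, the last being Lmod1, Myocd, Des and Myh11. Acta2 and its relatives Actg2 (7.15 ± 0.32) and Acta1 (4.35 ± 0.04) are near-identical in coding sequence, so their levels may share signal. Of 15 skeletal muscle markers only Mef2c (7.07, 6.96 and 6.97) and Acta1 were above the floor, and Myod1, the factor that can turn fibroblasts into muscle, had 3.54, 3.53 and 3.47. Among 26 cytoskeletal genes 7 were high, 9 moderate and 10 at the floor: beside Actb, Vim and Acta2, the tubulins Tubb5 (11.61 ± 0.11), Tuba1a (11.17 ± 0.17) and Tubb6 (9.18 ± 0.19) and the lamin Lmna (10.56 ± 0.05) were high, and the neurofilament genes were at the floor.

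The promoters of a pair of high genes and of a gene at the floor are shown as examples, without a moderate gene. Each runs from 250 bases before to 50 after the first start listed by RefSeq (GRCm38.p6). Every CCAAT or its reverse ATTGG, and every TATAAA, is in capitals. Col1a2 lies at chr6:4505368-4505667 on the plus strand, Vim at chr2:13574061-13574360 on the plus strand and Cdkn2a, described with the cell cycle genes, at chr4:89294570-89294869 on the minus strand.
Col1a2: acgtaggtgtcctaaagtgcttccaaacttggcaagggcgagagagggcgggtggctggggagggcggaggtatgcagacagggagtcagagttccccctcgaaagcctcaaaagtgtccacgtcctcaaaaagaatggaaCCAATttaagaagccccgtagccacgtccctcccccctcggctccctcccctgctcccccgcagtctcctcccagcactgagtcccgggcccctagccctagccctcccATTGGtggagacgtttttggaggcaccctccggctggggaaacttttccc
Vim: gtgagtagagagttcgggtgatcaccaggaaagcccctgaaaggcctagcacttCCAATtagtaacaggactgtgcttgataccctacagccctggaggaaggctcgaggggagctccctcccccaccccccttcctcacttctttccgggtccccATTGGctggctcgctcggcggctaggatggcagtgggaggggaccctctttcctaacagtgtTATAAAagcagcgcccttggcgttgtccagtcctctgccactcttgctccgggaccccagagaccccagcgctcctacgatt
Cdkn2a: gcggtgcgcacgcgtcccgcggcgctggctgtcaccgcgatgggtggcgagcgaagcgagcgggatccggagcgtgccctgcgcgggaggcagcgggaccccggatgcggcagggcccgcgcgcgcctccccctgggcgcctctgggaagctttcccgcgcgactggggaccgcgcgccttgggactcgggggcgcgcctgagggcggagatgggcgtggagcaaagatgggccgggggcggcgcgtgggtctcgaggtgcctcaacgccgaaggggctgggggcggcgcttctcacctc

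Vim carried TATAAA 32 bases before its start, CCAAT 196 bases before it and ATTGG 94 bases before it. Col1a2 carried CCAAT 109 bases before its start and ATTGG at the start itself. Cdkn2a held none of these letters and 45 CpG pairs in its 300 bases, against 13 for Col1a2 and 11 for Vim. A match is a description of letters, not a binding site. The letters are those of the reference genome, and whether these cells keep the Cdkn2a locus was not tested. These genes do not stand for their bands. Over 1669 high genes with a promoter in the table (83.7% of them) the median GC content was 62.7% and the median ratio of observed to expected CpG pairs was 0.839. Over 5966 moderate genes (80.4%) these were 61.3% and 0.788, and over all 27025 promoters listed they were 52.7% and 0.389. TATAAA or its reverse TTTATA was found in 6.95% of the high, 6.49% of the moderate and 14.2% of all promoters. For CCAAT or ATTGG the shares were 41.1%, 39.0% and 37.9%. Only 75.8% of the floor genes had a promoter in the table, so no values are given for them.

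Both chains of type I collagen were among the high matrix genes. Of 19 fibrillar and associated collagens 5 were high, 6 moderate and 8 at the floor. Beside Col1a1 and Col1a2 the high ones were Col6a3 (10.25, 10.34 and 9.93) and Col6a1 (9.39 ± 0.05), chains of the microfibrillar type VI, and Col5a2 (10.00 ± 0.16), a chain of type V, which sets fibril width. Col3a1, the chain of type III collagen that is plentiful in skin and vessels, was moderate with 8.10, 8.36 and 8.46, lowest on replicate 1. The third type VI chain, Col6a2 (8.33 ± 0.18), and Col5a1 (7.67 ± 0.25) and Col12a1 (6.04 ± 0.30) were moderate as well. At the floor were the cartilage chains Col2a1, Col11a1 and Col11a2, and Col5a3 (4.27 ± 0.11), Col14a1 (3.41 ± 0.04), Col8a2, Col24a1 and Col27a1.

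The enzymes that fold and crosslink collagen were nearly complete. Of 19 genes 7 were high, 10 moderate and 2 at the floor. P4hb, the shared subunit of prolyl hydroxylase, had 11.52, 11.55 and 11.71, Lox, the enzyme that starts crosslinks, 11.35, 11.26 and 11.48, and Pcolce, which speeds the trimming of procollagen, 10.24, 10.04 and 10.23. These values varied little over the 3 arrays. The lysyl hydroxylases Plod3 (9.36 ± 0.11), Plod1 (8.63 ± 0.16) and Plod2 (8.53 ± 0.12) straddled the high limit, and Serpinh1, the collagen chaperone HSP47, was moderate at 7.08 ± 0.42. The 2 members at the floor were P3h2 (3.26 ± 0.04) and Pcolce2 (3.27 ± 0.03).

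Glycoproteins of the matrix formed a list with many high members. Of 31 genes 13 were high, 10 moderate and 8 at the floor. Sparc, a collagen-binding protein, had 11.59, 11.53 and 11.64, and Efemp1, a fibulin, 11.52, 11.44 and 11.68. Both were high on every array. Elastic fibre genes were in part high, with Eln, elastin itself, at 9.48 ± 0.28 and its assembly proteins Fbln5 (10.48 ± 0.07) and Fbln2 (10.40 ± 0.09). The matricellular genes Thbs1 (10.54 ± 0.28), Ccn1 (9.84 ± 0.32) and Ccn2 (9.70 ± 0.39) were high, Tnc, tenascin C, was moderate (8.01 ± 0.12), and Postn, periostin, was at the floor (3.88 ± 0.08) with Fbn2, Mfap2, Mfap4, Ltbp4, Fbln1, Ccn3 and Vtn.

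Proteoglycan genes lay in all 3 bands. Of 26 genes 4 were high, 7 moderate and 15 at the floor. Bgn, biglycan, was the 1 high small leucine-rich gene, with 11.16, 11.15 and 10.90. Vcan, the large hyaluronan-binding versican, had 10.64, 10.63 and 10.60, and the heparan sulfate carriers Sdc4 and Sdc2 had 9.17, 9.34 and 9.35 and 9.20, 9.18 and 9.33. Prelp (6.45 ± 0.21) and Ogn (5.55 ± 0.20) were moderate, while Dcn (3.83, 3.59 and 3.75), Lum (3.88 ± 0.13), Fmod, Aspn and Kera were at the floor. Has2 (6.20 ± 0.31) was the 1 hyaluronan synthase above the floor, with Has1 (3.83) and Has3 (3.46) under it.

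Basement membrane genes were present by chain. Of 22 measured 4 were high, 8 moderate and 10 at the floor. Nid1, nidogen, which links laminin to collagen IV, had 10.21, 10.40 and 10.11. The laminin chains Lamc1 (9.69, 9.84 and 9.44) and Lamb1 (9.22, 9.37 and 9.19) were high, and of the alpha chains only Lama4 was above the floor (7.41 ± 0.09), with Lama1, Lama2, Lama3 and Lama5 at 3.34 to 3.57. Hspg2, perlecan, was high (9.10 ± 0.26). Collagen IV genes lie in pairs in the genome, and Col4a1 (7.43 ± 0.18) with Col4a2 (8.39 ± 0.17), and Col4a5 (7.70 ± 0.07) with Col4a6 (6.76 ± 0.21), were moderate, against Col4a3 (3.70) and Col4a4 (4.10) at the floor.

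Matrix proteases were restricted to a part of their family. Of 30 genes 9 were high, 9 moderate and 12 at the floor. The inhibitors Timp2 (11.34, 11.29 and 11.19), Timp3 (10.81, 10.66 and 10.54) and Timp1 (9.52 ± 0.04) were high, and Timp4 was at the floor (3.86 ± 0.01). Mmp2, a gelatinase, had 10.56, 10.63 and 10.73, and Mmp14, the membrane protease that activates it, 9.31 ± 0.06. The stromelysins and collagenases of inflamed tissue, Mmp3 (3.36 ± 0.03), Mmp13 (3.51 ± 0.08), Mmp8 (3.51 ± 0.06) and Mmp9 (3.29 ± 0.05), were at the floor. Adamts5, which cuts aggrecan and versican, was high (9.56 ± 0.07), with the sheddases Adam9, Adam10 and Adam17 at 9.05 to 9.80.

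Adhesion receptors were above the floor for few members of each family. Of 26 integrin subunits 4 were high, 5 moderate and 17 at the floor. Itgb1, the common beta 1 subunit, had 11.30, 11.43 and 11.50, Itgav, the alpha subunit of vitronectin receptors, 10.18, 10.31 and 10.20, and Itga6, of laminin receptors, 9.28, 9.27 and 9.43. Itga5, the alpha subunit of the fibronectin receptor, was moderate at 8.62 ± 0.08. The collagen-binding alpha subunits were low, with Itga1 at 5.48 ± 0.06 and Itga2, Itga10 and Itga11 at the floor, and the leukocyte subunits Itgb2, Itgal, Itgam and Itgax were at 3.46 to 3.59. Among 20 cadherins Cdh2, N-cadherin, was high with 9.11, 9.09 and 9.24 and all 19 others were at the floor, including Cdh11, the cadherin of many mesenchymal cells, with 4.15, 4.28 and 3.96. Of 23 tight junction genes Cldn12 (8.88, 8.94 and 9.01) was high and the scaffold Tjp1 (8.44 ± 0.07) moderate, and 21 were at the floor.

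Receptor tyrosine kinases, which read growth factors at the cell surface, spanned all bands. Of 51 measured 6 were high, 16 moderate and 29 at the floor. Axl, the receptor for Gas6, had 10.51, 10.66 and 10.62, Ryk, a Wnt co-receptor, 10.29, 10.35 and 10.43, and Ddr2 10.16, 10.15 and 9.97. All were high on each array. Met, the receptor for hepatocyte growth factor, was high (9.61 ± 0.00) while its ligand Hgf was at the floor (3.46 ± 0.07). Pdgfrb was high with 9.30, 9.41 and 9.38, and Pdgfra moderate with 8.32, 8.39 and 8.05, lowest on replicate 3. Igf1r, the IGF-1 receptor, crossed the high limit, with 8.70, 8.94 and 8.51. Fgfr1, with 8.44, 8.36 and 7.94, and Fgfr2 (6.34 ± 0.10) were moderate, and Fgfr3 and Fgfr4 were at the floor. Egfr, the EGF receptor, had 4.98, 4.83 and 4.63, close to the floor limit, and its partner Erbb2 had 7.04 ± 0.15. Kit (3.51 ± 0.02), Kdr (3.39 ± 0.05), Tek, Flt3, Ret and Alk were at the floor.

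Receptors and co-receptors of the TGF-beta and BMP family, most of them serine and threonine kinases, lay in all 3 bands. Of 14 genes 2 were high, 6 moderate and 6 at the floor. The BMP receptors Bmpr1a and Bmpr2 were high, with 9.38, 9.37 and 9.17 and 9.39, 9.47 and 8.95. The TGF-beta receptors Tgfbr1 (6.47 ± 0.10) and Tgfbr2 (6.72 ± 0.12) were moderate, with the co-receptor Tgfbr3 at 8.61, 8.55 and 8.10. The endothelial members Acvrl1 (3.67 ± 0.05) and Eng (3.54 ± 0.01) were at the floor.

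Among 36 G protein-coupled receptors 2 were high, 9 moderate and 25 at the floor. The high ones were F2r, the thrombin receptor, with 9.20, 9.39 and 9.63, and S1pr3, a receptor for sphingosine 1-phosphate, with 9.14, 9.27 and 9.11. Lpar1, the receptor for lysophosphatidic acid, a mitogen of serum, was moderate with 8.11, 8.04 and 8.12. S1pr2 (6.21 ± 0.23) and S1pr1 (6.08 ± 0.19) were moderate too, while the dopamine, muscarinic, bradykinin and angiotensin receptors were at the floor.

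Cytokine receptors were broadly above the floor and chemokine receptors were not. Of 29 cytokine and death receptors 4 were high, 15 moderate and 10 at the floor. Il6st, the signalling chain shared by the IL-6 family, had 10.57, 10.61 and 10.25, the TNF receptor Tnfrsf1a 8.78, 9.06 and 9.02 and the TWEAK receptor Tnfrsf12a 8.76, 8.91 and 8.92. Both chains of the interferon gamma receptor (Ifngr1 8.18 ± 0.12, Ifngr2 7.65 ± 0.15) and of the interferon alpha receptor (Ifnar1 7.06 ± 0.17, Ifnar2 6.58 ± 0.27) were moderate. Ghr, the growth hormone receptor, was high (8.79 ± 0.10). Of 19 chemokine receptors 0 were high, 1 moderate and 18 at the floor, the exception being the scavenger Ackr3 (5.33 ± 0.22), with Cxcr4 at 4.09 ± 0.12.

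Innate sensors and antigen presentation were partial. Of 19 pattern receptors 0 were high, 8 moderate and 11 at the floor. Tlr4, the receptor for bacterial lipopolysaccharide, had 8.39, 8.45 and 8.42, the adaptor Myd88 7.86, 7.87 and 7.57 and Tlr6 6.55, 6.19 and 6.66. The RNA sensor Ddx58 was moderate (5.74 ± 0.19) and its relatives Ifih1 (3.52 ± 0.10) and Dhx58 (3.54 ± 0.03) were at the floor. Of 18 antigen presentation genes 2 were high, 6 moderate and 10 at the floor. B2m, the light chain of MHC class I, had 11.30, 11.16 and 11.30, and Ly6e, an interferon-inducible surface protein, 9.10, 9.05 and 8.92. Tapbp, the chaperone tapasin, was moderate (8.10 ± 0.16), and the immunoproteasome genes Psmb8 (3.60 ± 0.01) and Psmb9 (3.65 ± 0.06) and the class II genes H2-Aa, H2-Ab1, H2-Eb1 and Cd74 were at the floor. The class I heavy chains H2-K1 and H2-D1 were not analysed, since their clusters carry several gene names.

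For the Wnt, Notch and Hedgehog pathways, 24 receptors were measured and 3 were high, 12 moderate and 9 at the floor. The high ones were Lgr4, a receptor for R-spondins, with 9.77, 9.64 and 9.66, Smo, the Hedgehog signal transducer, with 9.21, 9.21 and 9.07, and Notch2 with 8.82, 8.89 and 8.43. The Wnt receptors Fzd7 (8.30 ± 0.08), Fzd1 (8.21 ± 0.11) and Fzd2 (7.77 ± 0.13) with the co-receptors Lrp6 (8.37 ± 0.12) and Lrp5 (7.48 ± 0.31) were moderate. Ptch1, the Hedgehog receptor and itself a target of the pathway, had 6.61 ± 0.18, and Lgr5, a stem cell marker, was at the floor (3.69 ± 0.03).

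The secreted ligands included high, moderate and floor members. Of 50 growth factors and ligands 4 were high, 19 moderate and 27 at the floor. Fgf7, a mesenchymal factor for epithelia, had 10.63, 10.58 and 10.28, Kitl, the ligand of Kit, 9.70, 9.54 and 9.24, and Csf1, the macrophage growth factor, 9.07, 9.19 and 8.82. The receptors for these 3 ligands on their usual target cells, Fgfr2, Kit and Csf1r, were moderate (6.34), at the floor (3.51) and at the floor (3.82). Vegfd, a lymphatic growth factor, was high (8.73 ± 0.15). Pdgfa (7.21 ± 0.17) and Pdgfc (8.27 ± 0.19) were moderate, against Pdgfb (3.33 ± 0.06) and Pdgfd (3.39 ± 0.08) at the floor. Igf1 (3.79 ± 0.04) and Igf2 (3.51 ± 0.02) were at the floor. Of 16 IGF-binding proteins, Wnt antagonists and the like 2 were high, 2 moderate and 12 at the floor: Igfbp6 had 10.65, 10.51 and 10.69, Igfbp7 9.30, 9.13 and 9.82 and Igfbp4 7.84, 7.35 and 8.19, while all measured Dkk and Sfrp genes were at the floor. Il6 (3.94 ± 0.01) and Cxcl1 (4.09 ± 0.04) were at the floor and the chemokine genes Ccl2 (6.99 ± 0.19) and Ccl7 (8.13 ± 0.17) moderate.

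Nuclear receptors, factors switched by hormones and lipids, were mostly low. Of 44 genes 1 was high, 18 moderate and 25 at the floor. Nr3c1, the glucocorticoid receptor, was the 1 high member with 8.70, 8.83 and 8.77. Vdr, the vitamin D receptor, had 8.66, 8.62 and 8.12 and Nr2f2, a mesenchymal orphan receptor, 8.25, 8.34 and 8.26. The steroid receptors Esr1 (3.63 ± 0.01), Esr2 (3.30 ± 0.03) and Pgr (3.67 ± 0.05) were at the floor.

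Factors that set mesenchymal identity were mostly moderate. Of 38 genes 2 were high, 22 moderate and 14 at the floor. Prrx1, a homeobox factor of limb and skull mesenchyme, had 9.93, 9.99 and 9.96 and Osr1, a factor of embryonic mesoderm, 8.61, 8.62 and 8.94. Twist2 had 8.43, 8.30 and 8.77 and Twist1 7.80 ± 0.18, lowest on replicate 1. Snai2 (7.50 ± 0.27), Snai1 (7.05 ± 0.08), Zeb1 (7.35 ± 0.08) and Zeb2 (7.14 ± 0.14), repressors of epithelial genes, were all moderate, as were Tbx15 (7.87 ± 0.02), Foxf2 (7.23 ± 0.44) and Meis1 (7.28 ± 0.09). The hindlimb factors Pitx1 (3.31 ± 0.04) and Tbx4 (3.91 ± 0.03) and the forelimb factor Tbx5 (3.51 ± 0.04) were at the floor.

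HOX genes record position along the body axis, and none was high. Of 37 genes 0 were high, 14 moderate and 23 at the floor. Hoxd8 had 7.53, 7.33 and 8.04, Hoxb9 7.53, 7.69 and 7.53 and Hoxa5 7.11, 7.22 and 6.88. The genes of groups 10 to 13 were at the floor in every HOX cluster, with the highest of them, Hoxb13, at 3.97. Of 34 SOX, GATA and PAX factors 1 was high, 5 moderate and 28 at the floor, Sox9 being the high one and Gata4 (5.49, 5.31 and 5.14) and Gata2 (4.82, 4.65 and 5.04) the next.

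Genes of the response to mechanical cues, the regulating factors themselves included, were almost all above the floor. Of 23 genes tied to the factors SRF, YAP and TEAD 11 were high, 11 moderate and 1 at the floor. Flna, an actin crosslinker, had 11.02, 11.09 and 11.08, Vcl, vinculin of focal adhesions, 10.59, 10.63 and 10.59, and the known YAP target Axl is given above. Ccn1 and Ccn2, further YAP targets, were high, and Ankrd1, another, was moderate (7.87 ± 0.08). Yap1 (7.96 ± 0.06), Wwtr1 (7.73 ± 0.08), Srf (7.78 ± 0.14) and Tead1 (9.33 ± 0.18) were above the floor, and Myocd, the cofactor of smooth muscle, was the 1 member at it (3.76 ± 0.07).

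**Figure D4:**
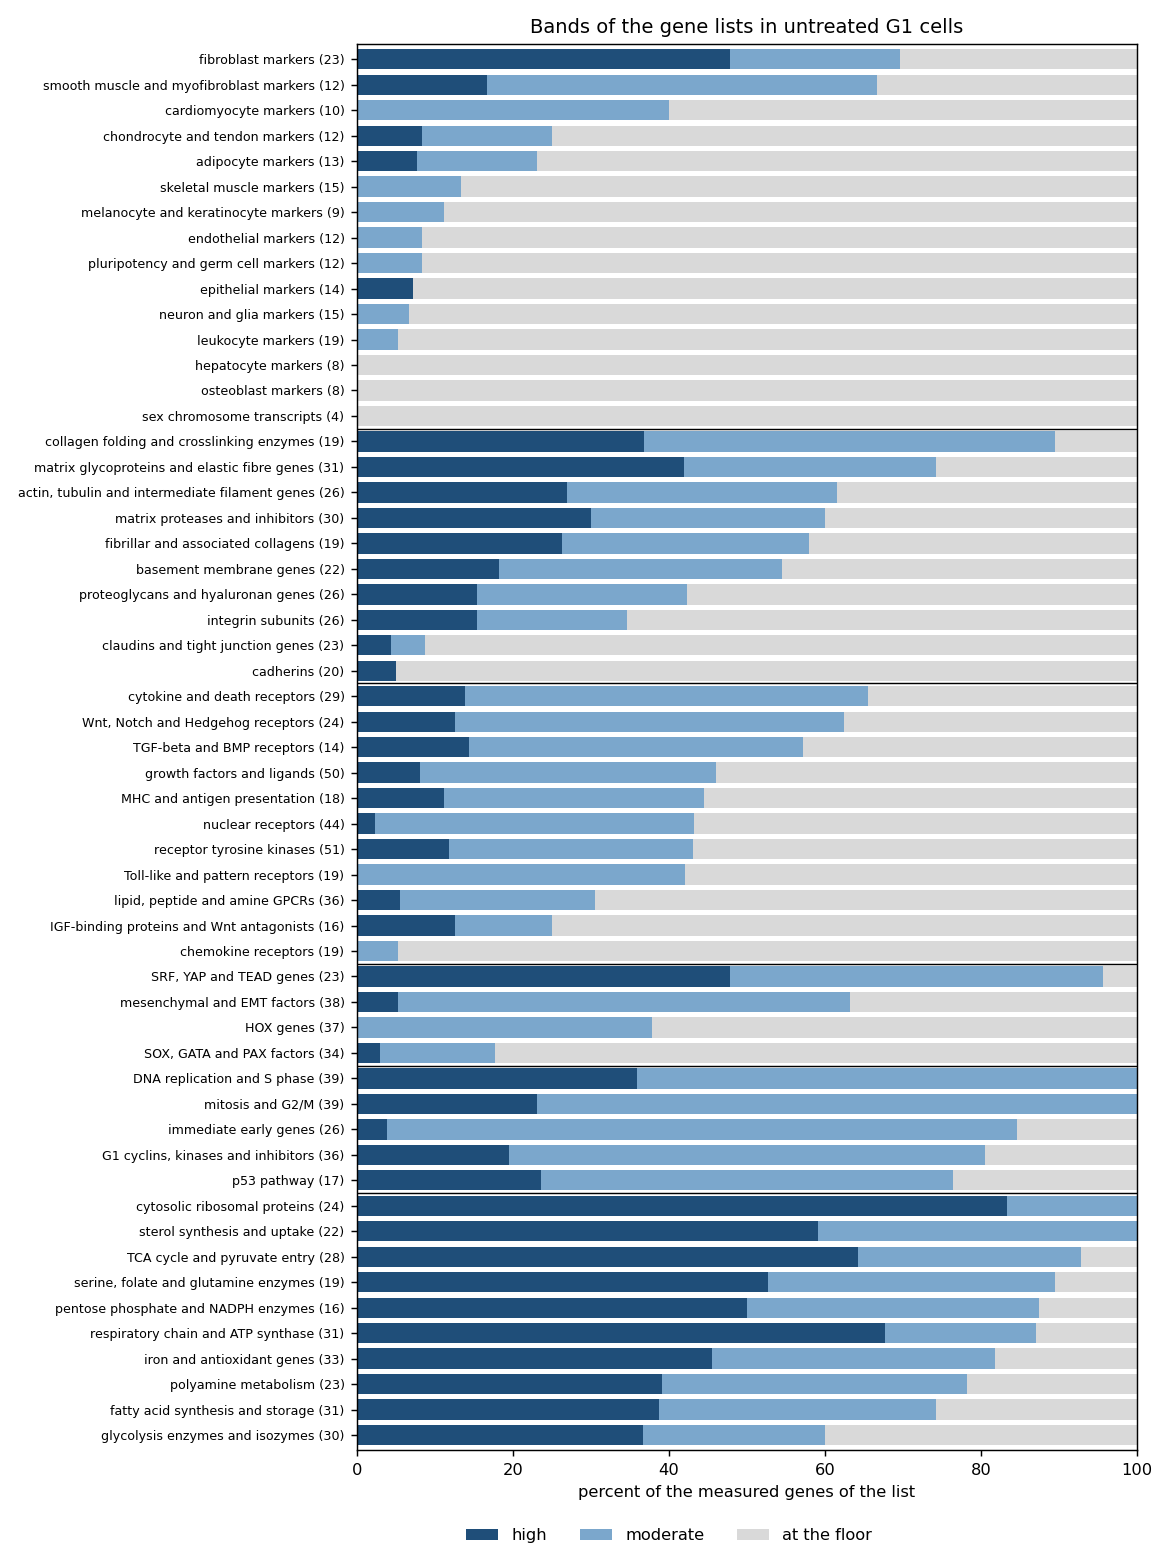
Share of the measured genes of each list (x axis, percent; number of genes in brackets) that were high, moderate or at the floor in untreated cells, with lists grouped by horizontal lines into identity, matrix and adhesion, receptors and ligands, lineage factors, cell cycle, and metabolism. Replication, mitosis, sterol and ribosomal protein lists have no member at the floor, while most markers of other cell types, cadherins, claudins and chemokine receptors are nearly all at the floor.

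The G1 machinery was well represented. Of 36 genes 7 were high, 22 moderate and 7 at the floor. Cdk4 had 11.14, 11.11 and 11.19, and the D-type cyclins Ccnd2 and Ccnd1 had 10.54, 10.65 and 10.60 and 10.29, 10.41 and 10.31. All 3 were high on every array. Cdk6 was high (9.82 ± 0.09), Ccnd3 moderate (6.66 ± 0.29), and the E-type cyclins Ccne1 (7.98 ± 0.15) and Ccne2 (7.59 ± 0.24) moderate. Rb1 (7.05, 6.93 and 7.02) and its relatives Rbl1 (8.32 ± 0.10) and Rbl2 (6.37 ± 0.15), the pocket proteins that bind E2F, were moderate.

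Inhibitors of the cyclin-dependent kinases differed by gene. Cdkn1b, encoding p27, was moderate with 7.52, 7.15 and 7.70, lowest on replicate 2, and Cdkn2c was moderate at 7.40 ± 0.55. Cdkn2a, encoding p16 and p19 ARF, had 3.26, 3.23 and 3.16 and Cdkn2b, encoding p15, 3.54, 3.46 and 3.47, all under the floor limit. On the side of Cdkn2a away from Cdkn2b the neighbour Mtap, a salvage enzyme of polyamine synthesis, was high with 9.87, 9.80 and 10.16. Dmrta1 (3.57 ± 0.10) and Zfp352 (3.54 ± 0.06), also near the locus in the RefSeq order, were at the floor. A level at the floor does not tell a missing gene from a silent one. Cdkn1c was at the floor too (3.51 ± 0.02), and Cdkn1a, encoding p21, was not analysed because its cluster carries several gene names.

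Genes of DNA replication and of mitosis were all above the floor, although the cells had been sorted as G1. Of 39 replication genes 14 were high, 25 moderate and 0 at the floor, with a median of 8.39. Pcna, the sliding clamp, had 10.90, 10.97 and 11.05, Rrm1, the large subunit of ribonucleotide reductase, 10.67, 10.82 and 11.07, and Mcm6, of the replicative helicase, 10.36, 10.40 and 10.50. Mcm5 had 9.41, 9.62 and 9.79, lowest on replicate 1. Of 39 mitotic genes 9 were high, 30 moderate and 0 at the floor, with a median of 7.72. Anln, the cytokinesis scaffold anillin, had 10.12, 10.07 and 10.26, Mad2l1, of the spindle checkpoint, 9.70, 9.87 and 9.92, and Ccna2, cyclin A2, 9.55, 9.42 and 9.48. Mki67, the marker Ki-67, was high with 9.18, 9.45 and 9.20, and Top2a (8.84 ± 0.12) with it. Plk1 (8.09 ± 0.24), Cdk1 (8.18 ± 0.01) and Ccnb2 (7.63 ± 0.28) were moderate. How many cells of other phases the sorted fraction held was not measured in these files, and its part in these levels was not tested. Replicate 3 was the highest array for 25 of 39 replication genes and for 25 of 39 mitotic genes, against 53.2% over all genes above the floor.

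p53 targets and early response genes lay in all 3 bands. Of 17 p53 pathway genes 4 were high, 9 moderate and 4 at the floor. The p53 targets Ccng1, Ei24 and Phlda3 had 11.41, 11.35 and 11.23, 9.35, 9.13 and 9.29, and 9.25, 9.20 and 9.24, and Mdm2, the ubiquitin ligase of p53, was high (8.81 ± 0.12). Of 26 immediate early genes, which serum and stress switch on within minutes, 1 was high, 21 moderate and 4 at the floor. Dusp1, a phosphatase of MAP kinases, was the high one with 8.52, 8.80 and 8.85, followed by Klf4 (8.59, 8.57 and 8.64) and Klf6 (8.11, 8.23 and 8.27). Fos (4.24 ± 0.23), Egr2 (3.85 ± 0.11), Egr3 (4.26 ± 0.04) and Atf3 (4.31 ± 0.06) were at the floor and Egr1 moderate (6.26 ± 0.11). Myc, the growth factor-induced regulator, was moderate just under the high limit (8.53 ± 0.15), and Mycn and Mycl were at the floor.

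Several metabolic lists had a large share of high genes. Of 30 glycolytic genes 11 were high, 7 moderate and 12 at the floor, and the bands fell by isozyme. Pgk1 had 11.87, 11.81 and 11.96, Ldha, which turns pyruvate into lactate, 11.74, 11.72 and 11.71, and Pkm, pyruvate kinase of most tissues, 11.32, 11.36 and 11.14. Their counterparts Pgk2 (3.63), Ldhc (3.49) and Pklr (3.71) of testis, liver or red cells were at the floor. Hk1 was high (11.04 ± 0.02), Hk2 moderate with 7.38, 7.86 and 7.88, lowest on replicate 1, and Hk3 at the floor (3.40 ± 0.03). The glucose transporter Slc2a1 had 10.29, 10.38 and 10.61, and Slc2a2, Slc2a3 and Slc2a4 were at the floor. The lactate transporter Slc16a1 was high (9.70 ± 0.21) and Slc16a3 at the floor (3.73 ± 0.03). Eno3, the muscle enolase, read 9.47 ± 0.17, a value that near-identical enolase sequence makes uncertain.

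Mitochondrial energy genes were high as a group. Of 28 genes of the TCA cycle and pyruvate entry 18 were high, 8 moderate and 2 at the floor. Mdh2, malate dehydrogenase, had 10.64, 10.64 and 10.70, Pdha1, of pyruvate dehydrogenase, 10.52, 10.49 and 10.94, and Cs, citrate synthase, 10.57, 10.42 and 10.54. The kinase Pdk4, which shuts pyruvate dehydrogenase, was at the floor (3.54 ± 0.01) with the testis gene Pdha2. Of 31 respiratory chain and ATP synthase genes 21 were high, 6 moderate and 4 at the floor. Atp5b had 11.88, 11.85 and 12.04, Atp5d 11.12, 11.05 and 10.89 and Atp5c1 11.02, 10.99 and 10.94, and the 4 at the floor were the muscle or lung forms Cox6a2, Cox7a1, Cox8b and Cox4i2. In these lists replicate 3 was the highest array for 20 of 26 TCA genes and 21 of 27 respiratory genes above the floor, beside the 53.2% over all genes.

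Every sterol gene measured was above the floor. Of 22 sterol genes 13 were high, 9 moderate and 0 at the floor. Msmo1, a sterol demethylase, had 11.73, 11.58 and 11.69, Insig1, the sterol sensor that holds SREBP back, 10.77, 10.61 and 10.60, and Idi1, of isoprenoid synthesis, 10.72, 10.63 and 10.39. Nsdhl, another demethylating enzyme, had 9.44, 9.30 and 8.94, lowest on replicate 3. Replicate 3 was the highest array for 7 of the 22 sterol genes. Of 31 fatty acid genes 12 were high, 11 moderate and 8 at the floor: the desaturases Scd2 (11.49, 11.45 and 11.48), Fads2 (10.81, 10.77 and 10.79) and Fads1 (10.47, 10.36 and 10.23) were high, as were Fasn (10.27 ± 0.27) and Acly (10.32 ± 0.12), and Acacb (3.64 ± 0.05) and Elovl3 (3.22 ± 0.03) were at the floor.

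Genes for NADPH, one-carbon units and amino acids were mostly high or moderate. Of 16 pentose phosphate and NADPH enzymes 8 were high, 6 moderate and 2 at the floor, the high ones including Me1, malic enzyme (10.58, 10.51 and 10.39), Pgd (10.12, 10.13 and 10.20) and Idh1 (10.05, 9.76 and 9.97). G6pd2 (6.95 ± 0.15) is a near-copy of the X-linked gene and so uncertain. Of 19 serine, folate and glutamine enzymes 10 were high, 7 moderate and 2 at the floor. Asns, asparagine synthetase, had 11.43, 11.52 and 11.76, Psat1, of serine synthesis, 10.74, 10.73 and 11.12, and Glud1, glutamate dehydrogenase, 10.74, 10.53 and 11.10. Phgdh, the first enzyme of serine synthesis, was high (9.97 ± 0.07) and Glul, glutamine synthetase, moderate (6.15 ± 0.08).

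Most genes of the drug's target pathway were above the floor. Of 23 polyamine genes 9 were high, 9 moderate and 5 at the floor. Odc1, ornithine decarboxylase, the enzyme that DFMO inhibits, had 9.61, 9.73 and 9.79. Eif5a, the only protein known to carry hypusine, a residue made from spermidine, had 11.80, 11.77 and 11.73. Whether the clusters read for Odc1 and Eif5a lie at these genes or at copies of them could not be checked. Slc3a2, a subunit of amino acid transporters linked to polyamine export, had 11.34, 11.38 and 11.37, and the scaffold Cav1, linked to uptake, 10.12, 10.01 and 10.51. Srm, spermidine synthase, was high (9.91 ± 0.11), as was the acetyltransferase Sat1 (9.56 ± 0.18). The arginases Arg1 (3.38 ± 0.06) and Arg2 (3.36 ± 0.05), which make ornithine from arginine, were both at the floor, as was Otc (3.59 ± 0.06), while Aldh18a1, on the route from glutamate, was high (9.98 ± 0.10). The antizyme gene Oaz1 was not analysed, its cluster carrying several names, and Oaz2 was moderate (5.86 ± 0.17).

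Iron and antioxidant genes were mostly high or moderate. Of 33 measured 15 were high, 12 moderate and 6 at the floor. Fth1 had 12.16, 12.12 and 12.21, Txn1, thioredoxin, 11.99, 11.92 and 12.12, and Ftl1, the ferritin light chain, 11.36, 11.36 and 11.33. The metallothioneins Mt2 (11.06 ± 0.43) and Mt1 (10.28 ± 0.13) were high and Mt3 and Mt4 at the floor. Tfrc, the transferrin receptor, was high (9.95 ± 0.12), and Slc40a1, the iron exporter, was at the floor (3.80 ± 0.24). Cytosolic ribosomal proteins had the largest share of high members among the 55 lists: of 24 measured 20 were high, 4 moderate and 0 at the floor, with Rps18 at 11.93, 11.95 and 11.85 and Rps6 at 11.88, 11.94 and 11.76. Rplp2 (5.08 ± 0.11) was the lowest of them.

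MicroRNA genes were near the floor as a class. Of 300 genes with a microRNA name 57 (19.0%) were above the floor and 1, Mir692-1 at 8.75, was high. Over all genes 37.2% were moderate and 10.0% high. The names were matched by their letters and also take in a host gene, Mir100hg (6.73, moderate). The probes read precursor or host RNA and not the mature form. Shown are members of the Mir17 cluster on chromosome 14, known for promoting growth, and the Mir15 and Mir16 family, known for restraining the cycle. They fall into 4 seed groups, with Mir17 at the floor and the others moderate. The sequences are the mature forms of RefSeq (GRCm38.p6), with the seed, bases 2 to 8, in capitals.
miR-17-5p: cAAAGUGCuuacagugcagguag
miR-20a-5p: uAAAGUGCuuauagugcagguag
miR-18a-5p: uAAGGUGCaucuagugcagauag
miR-19a-3p: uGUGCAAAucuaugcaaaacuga
miR-19b-3p: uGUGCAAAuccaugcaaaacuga
miR-15b-5p: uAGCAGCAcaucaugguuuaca
miR-16-5p: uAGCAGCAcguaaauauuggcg

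Mir17 and Mir20a shared the seed AAAGUGC, and their genes read 3.98, 4.18 and 4.50 (floor) and 5.25, 5.44 and 5.75 (moderate). Mir18, with the related seed AAGGUGC, read 5.73, 5.53 and 6.15. Mir19a and Mir19b-1 shared GUGCAAA and read 4.85, 5.12 and 5.73 and 4.14, 4.57 and 5.26. In all 5 genes of this cluster replicate 3 was the highest array. Mir15b (4.77, 4.79 and 5.68) and Mir16-1 (4.63, 4.53 and 4.70) shared AGCAGCA and were moderate.

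By chromosome, the share of genes at the floor ran from 44.9% to 55.7% on the autosomes, with the chemosensory receptors left out. It was 60.4% of 735 genes on the X, and all 9 genes of the Y were at the floor.

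The DFMO arrays show how the baseline bands held over time. With the same limits, 96, 71 and 120 of the floor genes read above the floor on the untreated arrays themselves. The arrays of 12 h gave 116 and 159, those of 24 h 129, 131 and 153, those of 48 h 198 and 159, and those of 96 h 293 and 265. Genes above the floor that read at the floor numbered 86, 112 and 93 on the untreated arrays. They were 126 and 148 on the arrays of 12 h, 168, 157 and 147 on those of 24 h, 175 and 170 on those of 48 h and 277 and 283 on those of 96 h. The bands were set on the untreated arrays, so a few more crossings are built into every other array. Of the high genes, 2 and 1 read at the floor on the 96 h arrays and 0 on each untreated array.

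By limma on all 12 arrays, 4372 of 19938 genes (21.9%) passed an adjusted p of 0.05 at 96 h against untreated, 2360 (11.8%) higher and 2012 (10.1%) lower. Of the high genes 262 were higher and 658 lower (46.1% called), of the moderate genes 1793 and 1296 (41.6%), and of the floor genes 305 and 58 (3.45%). Over all 4 times the F test called 3395 genes (17.0%), 36.8% of the high, 32.5% of the moderate and 2.39% of the floor genes. Both the bands and the contrasts use the untreated arrays, and a gene at the floor has no room to fall, so the directions are partly set by the bands and nothing is read from them.

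The genes that left their band furthest are named by rule, as the 5 largest rises from the floor and the 5 largest falls from the high band among called genes whose arrays did not overlap. Dcn read 7.57 and 8.60 at 96 h, against 3.83, 3.59 and 3.75 in untreated cells, and rose by 4.37 ± 0.31 log2 units (SE, limma adjusted p = 1.05e-05). The 2 arrays at 96 h lay above all untreated ones, and lay further apart from each other than the untreated arrays did. Ces2e, a carboxylesterase, read 7.63 and 8.33 at 96 h, against 3.74, 3.60 and 3.71 untreated (rise of 4.30 ± 0.19, adjusted p = 5.02e-07). Ptprv, a phosphatase gene, read 7.52 and 7.77 at 96 h, against 4.01, 3.97 and 3.82 untreated (rise of 3.71 ± 0.09, adjusted p = 2.36e-08). Thsd7a and Hoatz rose by 2.88 ± 0.23 and 2.32 ± 0.08. Folds from the floor are understated, since background stays in the values.

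Of the 5 largest falls from the high band, Uhrf1, Mcm6 and Mcm5 belong to the replication list and Ccna2 to the mitosis list. Pclaf, a partner of PCNA, read 4.06 and 4.13 at 96 h, against 9.76, 9.86 and 10.01 untreated, and fell by 5.78 ± 0.18 (adjusted p = 5.92e-08), ending under the floor limit. Uhrf1, which keeps DNA methylation through replication, read 4.86 and 4.44 at 96 h, against 9.62, 9.81 and 9.81 untreated, and fell by 5.10 ± 0.12 (adjusted p = 2.36e-08). Ccna2, Mcm6 and Mcm5 fell by 4.78 ± 0.17, 4.62 ± 0.08 and 4.57 ± 0.11. At 96 h all 39 replication genes and all 39 mitotic genes were called lower, against 10.1% of all genes, 33.0% of the high and 17.5% of the moderate genes, and 6 and 8 of them had a mean at the floor.

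**Figure D5:**
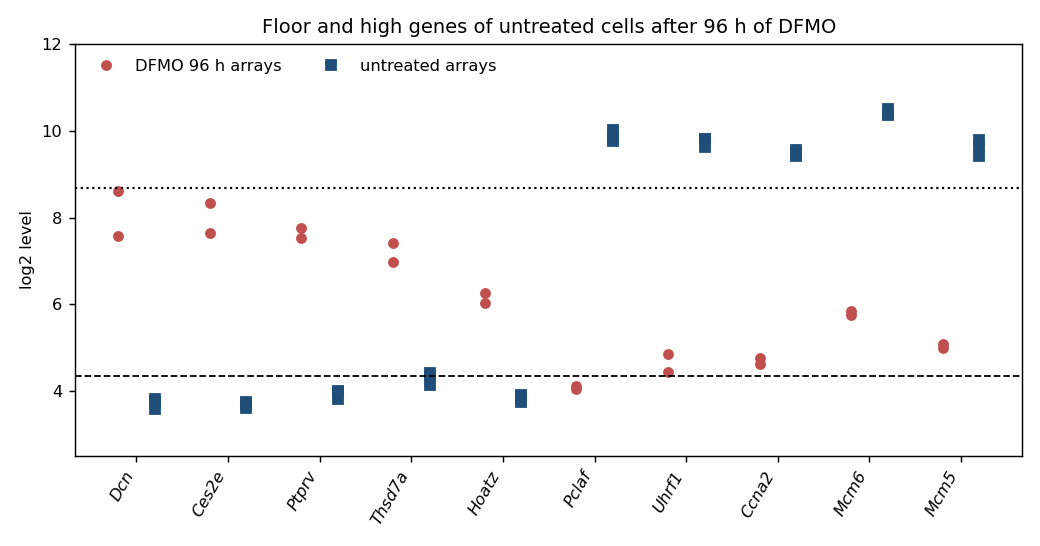
Log2 level (y axis) of the 5 floor genes with the largest rise and the 5 high genes with the largest fall after 96 h of DFMO, with the 2 arrays of 96 h (circles) left of the 3 untreated arrays (squares) for each gene. The groups do not overlap for any of the 10, as the rule requires, and Pclaf ends under the dashed floor limit; the dotted line is the high limit.

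Of 18 markers of other lineages that stood above the floor at baseline 1 was called higher at 96 h, 3 lower and 14 neither. Over all genes 11.8% were higher and 10.1% lower, but these shares include the floor genes, of which few were called. Of the moderate genes 24.2% were higher and 17.5% lower, and of the high genes 13.1% and 33.0%. Krt14 read 7.32 and 6.70 at 96 h, against 8.56, 8.76 and 9.17 untreated, and fell by 1.82 ± 0.24 (limma adjusted p = 0.000443). Tnnt2 read 4.30 and 4.31 at 96 h, against 6.71, 6.77 and 6.71 untreated, and fell by 2.42 ± 0.22 (adjusted p = 5.57e-05). Both ended below every untreated array. The other calls were Tubb3, lower by 0.84 ± 0.25 (adjusted p = 0.0385), and Mkx, a tendon factor, higher by 0.51 ± 0.15 (adjusted p = 0.0328). Tubb3 lost its call without untreated replicate 2 or 3 or either 96 h array, and with the replicate block or array weights. Mkx lost its own without untreated replicate 1 or 2 or the first 96 h array, and with the untreated and 96 h arrays alone. Dlk1 (change of -0.31 ± 0.21, adjusted p = 0.426), Sox9 (0.15 ± 0.13, adjusted p = 0.543) and Flt1 (-0.30 ± 0.19, adjusted p = 0.346) were among the 14 that did not pass. Of the 23 fibroblast markers 3 higher and 7 lower were called, beside 11.8% and 10.1% of all genes and 13.1% and 33.0% of the high genes, the lower count being 4 without untreated replicate 1 or 2, and 3 or 2 once the first or the second of the 96 h arrays was left out. The higher count was 5 with the untreated and 96 h arrays alone. Among the lower was Thy1, at 5.95 and 5.99 at 96 h against 8.26, 8.25 and 8.44 untreated, which fell by 2.35 ± 0.11 (adjusted p = 7.3e-07).

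Among the lists with high baseline levels, counts at 96 h are to be read against the 11.8% of all genes that were higher and the 10.1% that were lower, and against genes of the same band. Of the high genes 13.1% were higher and 33.0% lower, and of the moderate genes 24.2% and 17.5%. Of 22 sterol genes 1 higher and 19 lower were called, with a median log2 change of -1.79 against 0.00 over all genes. Of 19 serine, folate and glutamine genes 0 higher and 10 lower were called (median -0.66), the lower count being 6 without 96 h replicate 1. Of 28 TCA genes 1 higher and 9 lower were called (median -0.16), close to the share lower and the median of the high genes (-0.14). Not all lists with high baseline levels were mostly lower. Of 24 cytosolic ribosomal protein genes 3 higher and 0 lower were called (median 0.22). Of 31 respiratory chain and ATP synthase genes 5 higher and 1 lower were called (median 0.06). Cd80, a costimulatory ligand of T cells, was near the floor at baseline and read 8.32 and 8.05 at 96 h, against 4.72, 4.73 and 4.72 untreated, a rise of 3.46 ± 0.13 (adjusted p = 1.44e-07).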

How the data were processed

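Labelled cDNA was made from 200 ng of total RNA per sample, per the labels' protocols. The authors deposited log2 values for 35399 transcript clusters on 12 arrays. Per the submitters' processing notes RMA and Partek were used, without version numbers. Because RMA equalises the distributions of the arrays, a shift of the whole transcriptome could not be seen, and background stays in low values. Array medians lay between 4.13 and 4.20. The build behind the array is not given in the sources, and coordinates are those of RefSeq (GRCm38.p6).

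The platform annotation gave 1 symbol to 21789 clusters, several to 1621 and none to 11989; 21698 identifiers were found in RefSeq and 0 symbols changed. A gene was read from its cluster of highest mean (19938 genes). Of 999 genes with several clusters, 241 had them in different bands, and 16 had them both at the floor and high. No column of values lacked a sample.

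Bands and lists are descriptions without a test. The 55 lists hold 1328 distinct genes, of which 1222 were measured: 267 high, 421 moderate and 534 at the floor. Another 23 sit in clusters that several genes share, and some other members are not reported here. Samples, lists and limits were chosen with earlier results of these data known. List members could be named with their band, and values per array were given for well-known genes and for the 3 highest members of each list. Over all genes, the 10 highest means, the 10 widest ranges and, at 96 h, 5 rises from the floor and 5 falls from the high band were named. Krt14, Tnnt2, Dlk1, Sox9, Flt1, Thy1, Cd80, Tubb3 and Mkx at 96 h were picked after their values were seen.

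limma 3.58.1 in R 4.3.3 was fitted to all arrays with 1 mean per group, default eBayes and two-sided p-values adjusted by Benjamini-Hochberg over all genes (threshold 0.05). Tested on simulated data for the 96 h comparison (200 of 19938 genes changed, 5 runs), it found 90.2% of 2-fold and 99.2% of 4-fold changes, with 13.8 false calls per run. The simulated noise was independent between genes and arrays, without a deviation shared by many genes of 1 array. Far fewer genes were changed than the 4372 called in the data, so these rates need not hold there. Deviations from group means were used to check whether equal replicate numbers pair arrays. The 3 such pairs with 24 h had r of 0.153, 0.287 and 0.581. Unequal numbers gave 0.235 (untreated 1 with 24 h replicate 2) and 0.126 (untreated 2 with 24 h replicate 1). Replicate 3 of either group with another number gave -0.196 to -0.423. Equal numbers thus stood clear of unequal ones for replicate 3 alone. With 96 h only 2 numbers are shared (r of -0.136 and -0.0798), short of the 3 pairs needed. Alternatives covered the band limits, cluster choice, centring, array weights, an intensity trend, a floor filter, the replicate block and each array left out. Tables and figures were made with Python 3.11.15, pandas 2.3.3 and matplotlib 3.10.9.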

Additional observations from a re-analysis of the deposited data

Results flagged for a closer look

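Transcript clusters outside the gene comparisons gave signal above the floor in untreated cells. Of 11989 clusters without a symbol, 865 (7.21%) reached the high band, the highest with a mean of 13.10. Of 1621 clusters with several symbols, 429 (26.5%) reached it. Both sets were noticed because they are values that no comparison above uses. The several-symbol clusters hold genes such as Gapdh and Actg1, whose level cannot be assigned to 1 gene.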

How the results depend on the processing

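The count of genes at the array floor in untreated cells stayed within 1.5 times of 10525 in every alternative run. The count of genes in the high band in untreated cells follows its definition, with 997 at the top 5% and 4985 at the top 25%. The count of genes with a spread over 1 log2 unit among untreated arrays, 55, ran from 1 to 44 when 1 replicate was left out: 44 without replicate 1, 26 without replicate 2 and 1 without replicate 3. Without replicate 3, 97.7% of the high and 99.5% of the floor genes were shared with the description above. Of the counts of list members under the alternatives, 549 at the floor and 440 in the high band stayed within 1.5 times of the reported count; 1 at the floor and 55 in the high band did not, the 55 including 23 at the top 5% and 27 at the top 25%. At 96 h 4372 genes were called, 4778 with the replicate number as a block, 4353 after centring, 4799 with array weights and 4364 with an intensity trend. Leaving out 1 untreated array gave 3641 to 4002 calls and leaving out either 96 h array 3039 or 3132, where the lone array is assumed to vary like the other groups. The F test called 3951 genes with the block, against 3395 without it. Over all alternatives, 533 results of single genes at 96 h kept direction and side of the threshold, 37 lost the call, 15 gained it and 0 reversed. At 96 h the counts of called members of the replication, mitosis and sterol lists stayed within 1.5 times in every alternative; over all lists and both directions 1041 counts did and 161, mostly small, did not. The floor hides low transcripts, levels of different probes cannot be ranked, and the purity of the sort is not known here.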
